A study of Mus musculus with 6 samples.

Results

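The AP-1 and immediate early genes examined here were Fos, Fosb, Jun, Junb, Jund, Egr1, Atf3, Ier2, Ier3 and Dusp1, a list of 10 genes chosen by name. Every probe set whose only platform gene symbol was one of these names was taken, which gave 12 probe sets of the 45037 tested, for 10 of the 18193 genes with a single symbol. Jun and Jund were each read by 2 probe sets and the other 8 genes by 1. The arrays held RNA of MLL-AF9 LGMP, leukaemic progenitors sorted from mouse bone marrow as YFP-positive cells without lineage markers or Sca1 and with cKit, CD34 and FcgRII/III.

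The WT group (3 arrays) was EF1αwt/wt and the N1-IC group (3 arrays) was EF1αwt/lsl-N1-IC, and both groups were ROSAwt/CreERT2 and carried MLL-AF9. MLL-AF9 is a fusion oncogene of acute myeloid leukaemia, delivered to cKit-positive donor cells together with the YFP marker. N1-IC is the intracellular, active part of the Notch1 receptor, and in an lsl allele Cre has to remove a stop cassette before it can be expressed. CreERT2 is a Cre recombinase that tamoxifen switches on, and both groups received 2 doses of tamoxifen (0.2 mg per g of body weight). Irradiated wild-type recipients aged 12 weeks had been given 50000 infected cells with 250000 support marrow cells. Tamoxifen began 4 weeks later, and cells were taken 6 days after the last dose. All WT samples were labelled male and all N1-IC samples female, so genotype and sex cannot be told apart in any comparison below. The labels do not say whether each sample came from its own recipient, so each p-value measures no more than the spread between these arrays, which may be technical.

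AP-1 is a family of transcription factor dimers built from Jun proteins (Jun, Junb, Jund), Fos proteins (Fos, Fosb) and relatives such as Atf3, which bind DNA through a basic region and pair through a leucine zipper. Their genes are immediate early genes: growth factors, cytokines or stress switch them on within minutes through transcription factors that are already present in the cell, such as SRF with its partners and CREB. The transcripts are short-lived, and feedback genes such as Dusp1 shut the signal off again. The same genes are known to respond to the handling of live cells, and in myeloid cells Jun, Fos and Egr1 are linked to differentiation towards monocytes.

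The sequences just upstream of the start sites are shown for Fos, Fosb, Junb and Dusp1, because short elements in this stretch, such as the binding site of CREB, are part of the rapid control of these genes. They are the 250 bases before the RefSeq start site, taken from the GRCm38.p6 assembly on the coding strand, 5′ to 3′. Capitals mark the core of the cAMP response element, TGACG, or its full palindrome TGACGTCA, which contains it, and in Fosb also the EGR element GCGNGGGCG. The window of Fos is chr12:85473640-85473889 on the plus strand, that of Fosb chr7:19310046-19310295, that of Junb chr8:84978749-84978998 and that of Dusp1 chr17:26508473-26508722, the last 3 on the minus strand.
Fos: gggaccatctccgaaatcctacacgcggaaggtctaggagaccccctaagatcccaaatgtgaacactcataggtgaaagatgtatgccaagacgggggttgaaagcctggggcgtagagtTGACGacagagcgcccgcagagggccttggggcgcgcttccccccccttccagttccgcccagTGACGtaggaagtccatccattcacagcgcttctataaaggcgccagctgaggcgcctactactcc
Fosb: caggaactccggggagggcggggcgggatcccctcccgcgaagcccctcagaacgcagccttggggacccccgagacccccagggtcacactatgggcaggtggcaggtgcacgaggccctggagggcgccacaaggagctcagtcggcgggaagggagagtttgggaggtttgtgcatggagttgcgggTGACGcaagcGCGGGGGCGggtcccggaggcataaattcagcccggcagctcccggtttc
Junb: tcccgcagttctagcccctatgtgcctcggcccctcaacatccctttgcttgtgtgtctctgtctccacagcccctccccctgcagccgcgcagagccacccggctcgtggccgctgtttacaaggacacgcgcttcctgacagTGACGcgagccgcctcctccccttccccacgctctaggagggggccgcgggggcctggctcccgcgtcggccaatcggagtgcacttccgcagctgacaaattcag
Dusp1: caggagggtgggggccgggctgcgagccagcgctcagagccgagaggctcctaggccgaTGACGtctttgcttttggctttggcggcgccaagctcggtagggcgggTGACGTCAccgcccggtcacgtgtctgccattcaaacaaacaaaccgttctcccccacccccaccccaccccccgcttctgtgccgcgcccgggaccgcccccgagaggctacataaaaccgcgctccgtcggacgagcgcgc

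RefSeq promoter entries were at hand for 8 of the 10 genes, all but Egr1 and Ier2. Searched on both strands, TGACG was found in 5 of these 8 windows (Fos, Fosb, Junb, Atf3 and Dusp1), against 17.8% of all 32851 windows of the same length. The full element TGACGTCA was found in the window of Dusp1, starting 143 bases before the start site, against 1.55% of all windows. The Fos window held TGACG at 129 and at 66 bases before the start. GCGNGGGCG was found in the window of Fosb (4.70% of all windows). TGGGAA, the core bound by the Notch partner RBPJ, was found in the windows of Jun and Jund, against 21.6% of all windows. The AP-1 element TGANTCA (6.75% of all windows) and the CArG box bound by SRF (1.47%) were found in 0 of the 8. Longer variants of the AP-1 element were not searched, so this count does not cover them. The Jun window holds the letters TGACATCA, which TGANTCA cannot match. These matches describe letters in a short window and not bound sites. Elements more than 250 bases upstream were not searched, so a count of 0 does not speak to them.

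No difference between N1-IC and WT was detected for any of the 10 genes, and for 11 of 12 probe sets the difference was smaller than the pooled SD within groups. Of the 12 probe sets 0 passed limma's test at an adjusted p under 0.05, with p-values adjusted over all 45037 probe sets by the Benjamini-Hochberg method. Over the whole array 4 probe sets passed (0.00888%), all lower in N1-IC. At an unadjusted p under 0.05 the count was also 0 of 12, against 7.70% of all probe sets. In 0 of 12 probe sets did the 3 N1-IC arrays lie wholly above or below the 3 WT arrays, against 14.4% of all probe sets (7.40% higher and 7.02% lower in N1-IC). The mean was higher in N1-IC for 5 probe sets and lower for 7, where 49.5% of all probe sets had the lower mean there. By the brightest probe set of each gene 6 of the 10 were lower, against 47.4% of all genes. For the 12 probe sets the median log2 fold change was -0.022, against 0.0025 over all probe sets. The smallest unadjusted p was 0.187, and adjusted p values ran from 0.702 to 0.998.

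**Figure D1:**
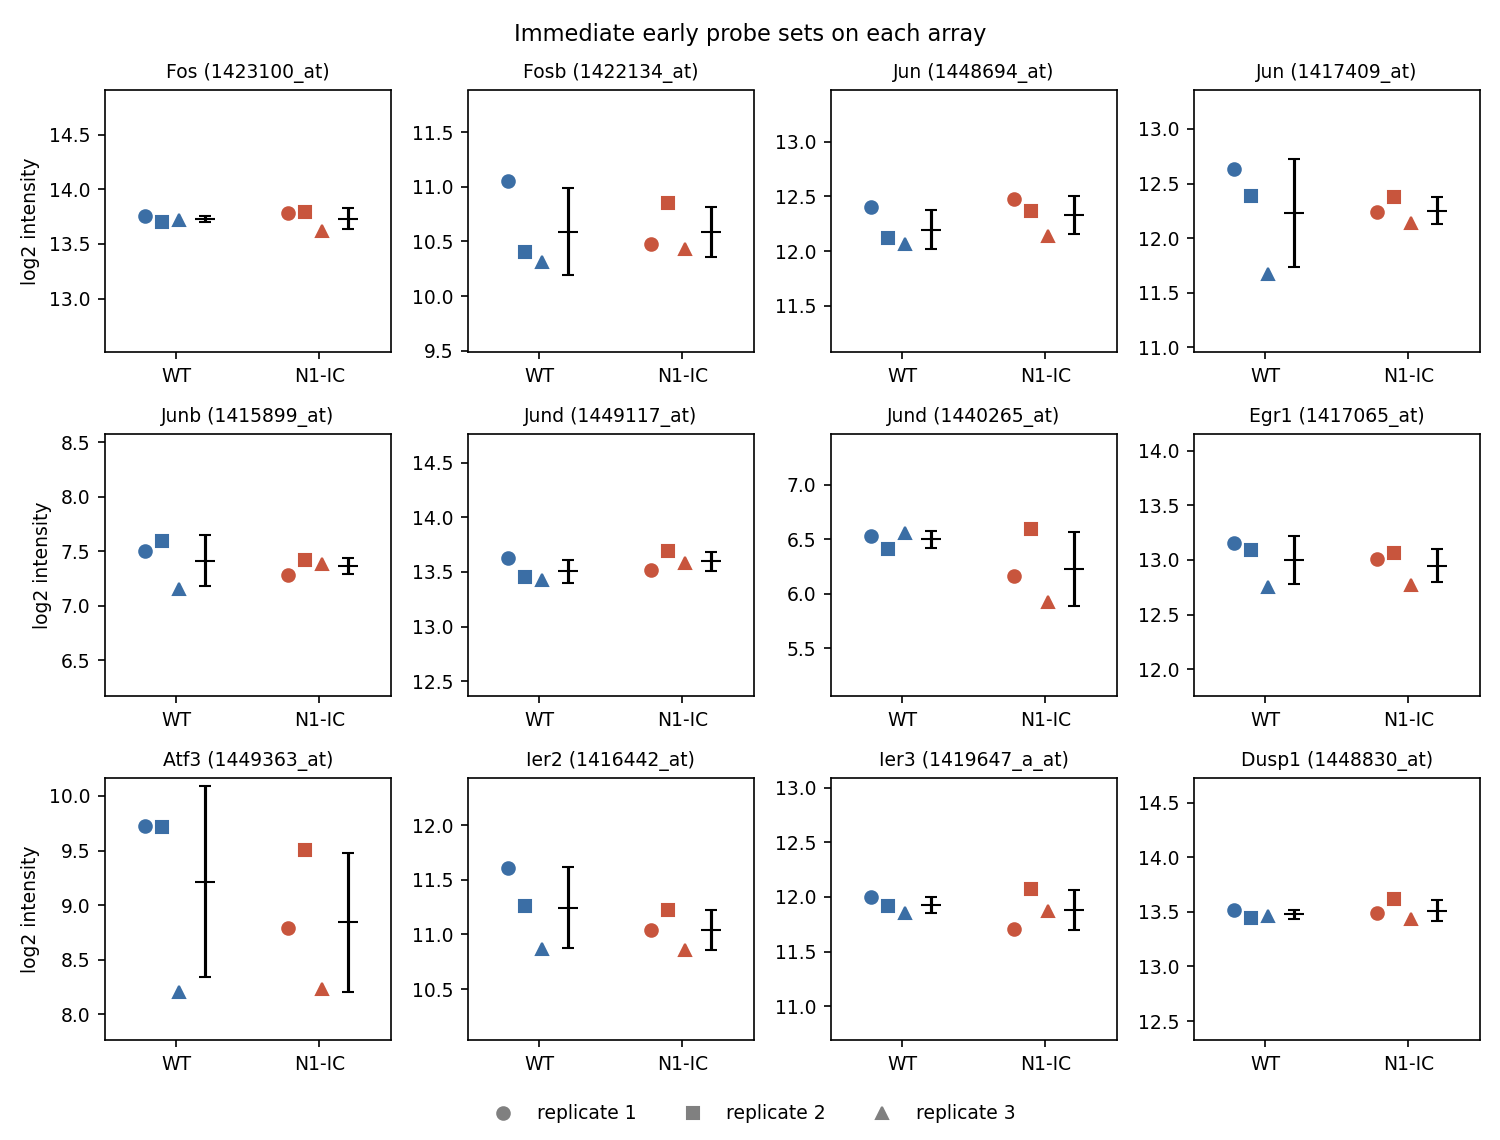
Log2 intensity of the 12 probe sets of the 10 AP-1 and immediate early genes on each array, WT in blue and N1-IC in red, with 1 symbol per replicate number and the group mean ± SD (n = 3) in black. Each panel spans the same number of log2 units. The groups overlap in all 12 panels, and Atf3 has the widest spread, from 8.20 to 9.72.

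In log2 units Fos had the smallest SD of the 12 probe sets, while its paralogue Fosb varied more. Neither was flat for its level, as the SD of Fos exceeded 71% and that of Fosb 85.2% of the 500 probe sets nearest in mean level. Fos, whose protein is the classical partner of Jun, read 13.76, 13.70 and 13.72 log2 units on WT arrays 1, 2 and 3 and 13.79, 13.79 and 13.62 on N1-IC arrays 1, 2 and 3. The 6 arrays thus spanned 0.17 log2 units. The log2 fold change was 0.0074 ± 0.095 (limma standard error), with a 95% interval of -0.22 to 0.24 and a limma adjusted p of 0.985. Fosb, which pairs with Jun proteins as Fos does, read 11.05, 10.41 and 10.31 in WT and 10.48, 10.85 and 10.43 in N1-IC. WT replicate 1 and N1-IC replicate 2 were the high arrays, 1 from each group, and the other 4 lay between 10.31 and 10.48. Its log2 fold change was -0.0024 ± 0.23, with an interval of -0.56 to 0.56.

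Among the Jun family, the Jun gene itself was read by 2 probe sets. The one with the higher mean gave 12.40, 12.12 and 12.06 in WT and 12.48, 12.37 and 12.14 in N1-IC. Its log2 fold change was 0.13 ± 0.14. The second Jun probe set gave 12.63, 12.39 and 11.67 in WT and 12.24, 12.38 and 12.14 in N1-IC, with a change of 0.022 ± 0.25. On both probe sets WT replicate 3 was the lowest of the 6 arrays, and they differed on N1-IC replicate 1, which was the highest array on the first but lay below 3 others on the second. Junb, an AP-1 subunit that can restrain Jun, read 7.50, 7.59 and 7.15 in WT and 7.28, 7.42 and 7.39 in N1-IC, and its change was -0.052 ± 0.14 log2 units. The N1-IC arrays lay inside the range of the WT arrays.

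Jund, the Jun family member that is usually expressed without a stimulus, read 13.63, 13.46 and 13.43 in WT and 13.52, 13.69 and 13.58 in N1-IC on its brighter probe set, and its change was 0.095 ± 0.10 log2 units. Its dimmer probe set read 6.53, 6.41 and 6.56 in WT and 6.17, 6.60 and 5.93 in N1-IC, and there the change was -0.27 ± 0.18. The probe sets thus had opposite signs, and neither passed (limma adjusted p of 0.793 and 0.702). The dimmer one lay less than 1 log2 unit above the array medians of 5.63 to 5.67. It was also the single probe set of the 12 whose group difference exceeded its pooled within-group SD (0.25 log2 units).

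Atf3, a stress-induced bZIP factor that can dimerise with Jun proteins, varied most. It read 9.72, 9.72 and 8.20 on WT arrays 1, 2 and 3 and 8.79, 9.50 and 8.24 on N1-IC arrays 1, 2 and 3. Each group held a low array near 8.2 and at least 1 high array at or above 9.5. The log2 fold change was -0.37 ± 0.51, and the 95% interval of -1.61 to 0.86 was the widest of the 12, so a decrease of 1 log2 unit lay within it. For the other 11 probe sets the interval lay within 1 log2 unit of 0 on both sides, and for 7 of them within 0.5.

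Egr1, a zinc finger transcription factor induced through SRF, read 13.154, 13.092 and 12.748 in WT and 13.005, 13.064 and 12.775 in N1-IC. Replicate 3 was the low array of each group, and the log2 fold change was -0.050 ± 0.15. Ier2, a nuclear protein of the immediate early response, read 11.61, 11.26 and 10.87 in WT and 11.04, 11.22 and 10.86 in N1-IC, again with replicate 3 lowest in each group. Its log2 fold change was -0.20 ± 0.21.

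Ier3, which protects cells from apoptosis and modulates ERK signalling, read 12.00, 11.91 and 11.86 in WT and 11.71, 12.07 and 11.87 in N1-IC, which gave a change of -0.041 ± 0.12 log2 units. N1-IC replicates 1 and 2 were the lowest and the highest of all 6 arrays. Dusp1, the phosphatase that switches off the stress kinases p38 and JNK, read 13.52, 13.44 and 13.47 in WT and 13.49, 13.62 and 13.44 in N1-IC. Its arrays spanned 0.18 log2 units, and the log2 fold change was 0.036 ± 0.095.

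**Figure D2:**
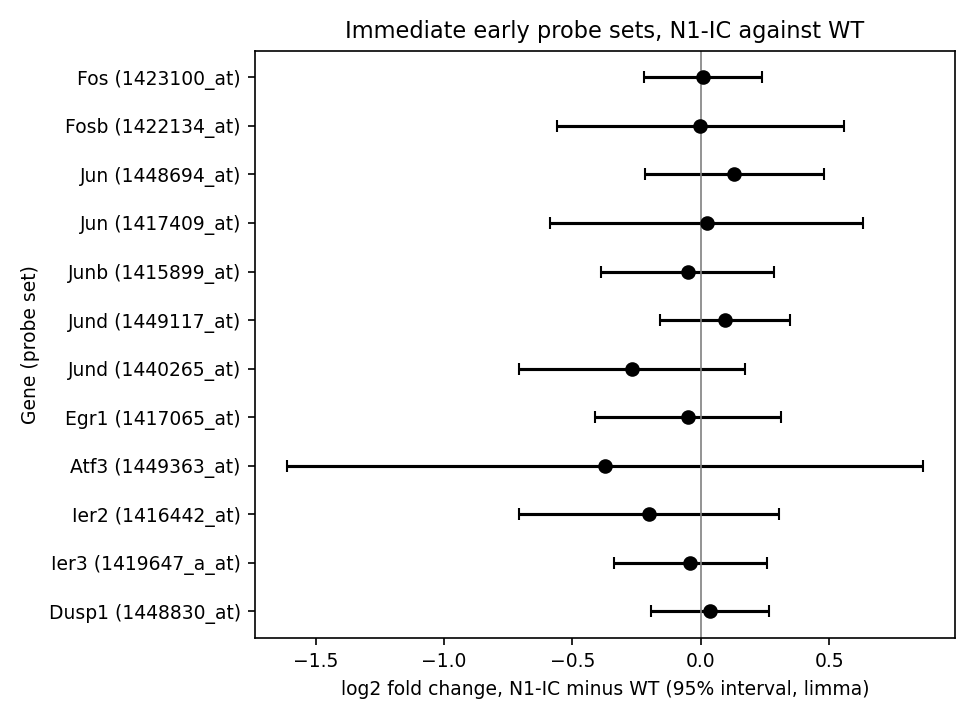
Log2 fold change of N1-IC over WT for the 12 probe sets, with the 95% interval of the limma fit (3 arrays per group, not adjusted for the number of probe sets). All 12 intervals include 0, and that of Atf3 is the widest, from -1.61 to 0.86.

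All 12 probe sets were above the median of every array, and 9 were above the upper quartile of every array; the exceptions were Junb, the dimmer Jund probe set and, on some arrays, Atf3. A probe set's brightness depends on its own probes, so levels of different genes are not compared. Fos, the brighter Jund probe set and Dusp1 had linear intensities from 11024 to 14192, where the highest value on any array was 24044. Whether so bright a signal was compressed was not tested. Each probe set was therefore set beside the 500 probe sets nearest to it in mean level. The SD over the 6 arrays was above the median of these neighbours for 10 of 12 probe sets. The second Jun probe set exceeded 97.8% of its neighbours, Atf3 96.8%, Egr1 94.6%, the brighter Jund probe set 89.2% and Ier2 88.0%. The first Jun probe set exceeded 86.4% and Fosb 85.2%. Fos exceeded 71.0%, Dusp1 66.6% and Ier3 54.2%. Junb exceeded 11.8% and the dimmer Jund probe set 36.2%.

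The arrays of a group did not move together, while the genes did. With each gene read by its brighter probe set and set against its own mean over the 6 arrays, 10 of 10 genes were above that mean on WT replicate 1 and 10 of 10 on N1-IC replicate 2. On WT replicate 3 the count was 0 of 10, on N1-IC replicate 3 it was 1 of 10, on N1-IC replicate 1 it was 3 of 10 and on WT replicate 2 it was 5 of 10. Over all 18193 genes the share above their own mean was between 46.2% and 52.8% on each array. The genes were chosen with earlier results of these arrays known and share each array, so these counts describe the 6 arrays and are given without a test.

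The mean deviation of the 10 genes was 0.23 log2 units on WT replicate 1, 0.15 on N1-IC replicate 2 and 0.064 on WT replicate 2. It was -0.049 on N1-IC replicate 1, -0.17 on N1-IC replicate 3 and -0.22 on WT replicate 3. Each group thus held 1 array near the top and 1 near the bottom of this order. The mean level of the 10 genes was 11.63 ± 0.23 (SD, n = 3) log2 units in WT and 11.58 ± 0.17 in N1-IC, a difference of -0.045, which was smaller than the SD of either group. Within WT the arrays spanned 0.45 log2 units and within N1-IC 0.33. Atf3 moved most, and without it the mean deviations ran from 0.18 on WT replicate 1 to -0.16 on WT replicate 3, with 9 of 9 genes above their mean on WT replicate 1 and on N1-IC replicate 2, and WT replicate 2 was then at -0.0055.

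**Figure D3:**
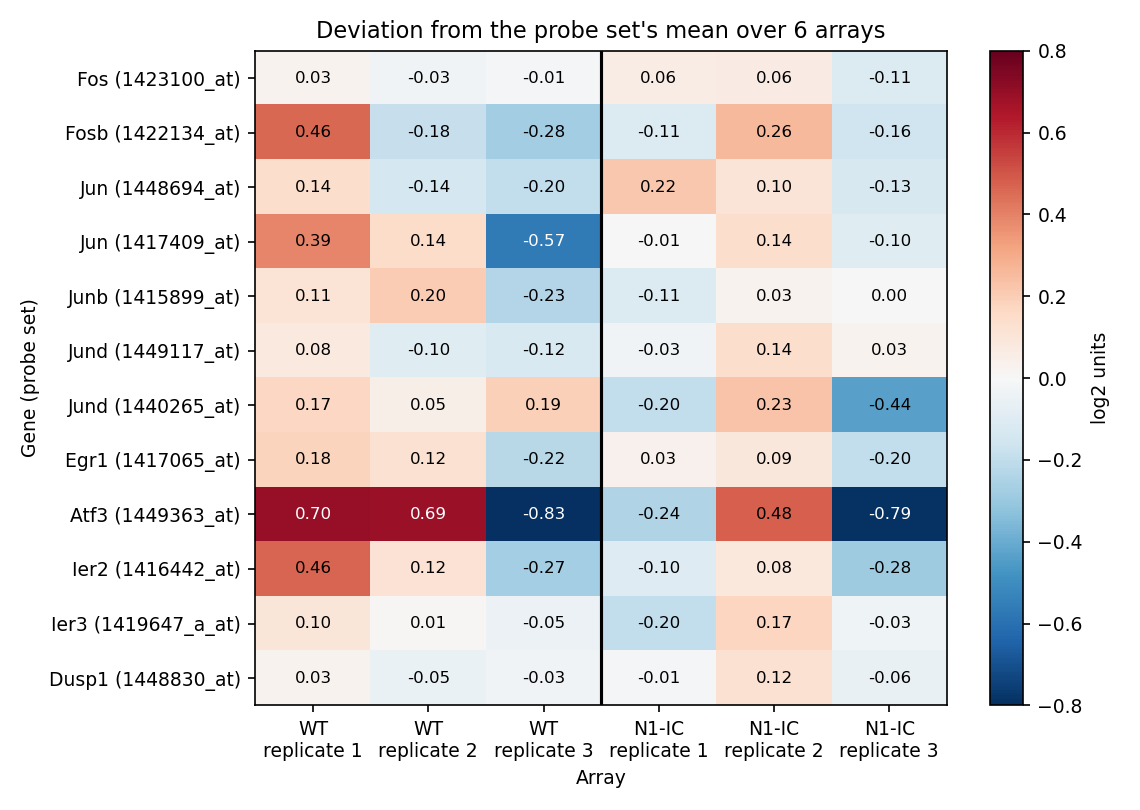
Deviation of each of the 12 probe sets from its own mean over the 6 arrays, in log2 units, with red above and blue below the mean and the colour scale ending at 0.8 log2 units either side. WT replicate 1 and N1-IC replicate 2 are above the mean for all 12 probe sets, and the line separates the groups.

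Pairs of arrays restate these deviations and add no separate support. The pairs below were picked as high and low arrays from the same values, so their counts largely follow from those above. All 10 genes were higher on WT replicate 1 than on WT replicate 3, by 0.45 log2 units on average, and all 10 were higher on N1-IC replicate 2 than on N1-IC replicate 3, by 0.33. Over all genes 50.8% and 50.6% were higher in these comparisons. Across the groups, 10 of 10 genes were higher on N1-IC replicate 2 than on WT replicate 3 and 10 of 10 were higher on WT replicate 1 than on N1-IC replicate 3. WT replicate 1 and N1-IC replicate 2 differed by 0.074 on average, with 6 genes higher on the first and 4 on the second.

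Whether the groups separated depended on single arrays. WT replicate 3 was the lowest of the 6 arrays for 6 of the 10 genes, so leaving it out has to lower their fitted fold changes. The probe sets share each array, so the counts without overlap describe the arrays and were not tested. Without WT replicate 3, the N1-IC arrays were wholly below the remaining WT arrays for 5 of 12 probe sets (the second of Jun, Junb, Egr1, Atf3 and Ier2), against 15.6% of all probe sets wholly lower in N1-IC and 32.3% without overlap in either direction. The log2 fold change of Atf3 was then -0.88 and that of Ier2 -0.39, with limma adjusted p values of 0.439 and 0.445. At the other end, Atf3 was at -0.070 without N1-IC replicate 3 and Ier2 at -0.022 without WT replicate 1. Without WT replicate 1 the direction was the other way, with 3 of 12 probe sets (Fosb, the first of Jun and the brighter of Jund) wholly higher in N1-IC, against 12.1% of all probe sets wholly higher and 23.0% without overlap in either direction. Without N1-IC replicate 2 the dimmer Jund probe set was wholly lower in N1-IC, against 11.2% of all probe sets lower and 22.7% in either direction. Without N1-IC replicate 3 Fos was wholly higher, against 13.1% higher and 26.3% in either direction. Without WT replicate 2 or N1-IC replicate 1 the count stayed at 0 of 12, against 22.9% and 23.8% of all probe sets in either direction. Leaving out each of the 6 arrays in turn, 0 of 12 probe sets passed an adjusted p under 0.05 each time.

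Immediate early genes outside the list followed a like order of arrays. All 29 listed genes were measured, with 18 means higher and 11 lower in N1-IC and 0 passing over all probe sets. Their median log2 fold change was 0.036, against 0.012 over all genes by the brightest probe set. Their mean deviation was 0.18 on WT replicate 1, 0.10 on N1-IC replicate 2, 0.043 on WT replicate 2, -0.028 on N1-IC replicate 1, -0.098 on N1-IC replicate 3 and -0.20 on WT replicate 3. That is the same order of the 6 arrays as for the 10 genes. On N1-IC replicate 2, 21 of 29 genes were above their own mean, and on WT replicate 3 it was 8 of 29.

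At an unadjusted p under 0.05 there were 5 of the 29, against 7.22% of all genes. In 5 of the 29 the groups did not overlap (3 higher and 2 lower in N1-IC), against 14.8% of all genes, 8.32% higher and 6.52% lower. Btg2, an antiproliferative gene, read 10.88, 10.54 and 10.39 in WT and 10.08, 10.03 and 9.92 in N1-IC, and its difference was -0.60 ± 0.15. Csrnp1, which encodes a nuclear protein, read 10.31, 10.19 and 10.06 in WT and 10.54, 10.64 and 10.56 in N1-IC, and its difference was 0.39 ± 0.10 log2 units. Both genes separated the groups on every array. Sgk1, a kinase gene induced by serum and glucocorticoids, had a log2 fold change of 0.93 ± 0.34, and Klf4, a transcription factor of monocytes, one of -0.78 ± 0.25 with groups that overlapped. The limma adjusted p was 0.639 for each of these 4 genes. Dusp2, named after its values were seen, was the fifth gene at an unadjusted p under 0.05, with -0.41 ± 0.16.

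Other AP-1 and related bZIP genes gave no call either. Of 13 measured of 14 listed, 8 had their higher mean in N1-IC and 5 in WT, 0 passed and the median log2 fold change was 0.087. Batf, a factor that pairs with Jun proteins in lymphoid and myeloid cells, had 0.26 ± 0.13, and its relatives Batf2 and Batf3 had -0.62 ± 0.33 and 0.17 ± 0.11, with Batf3 below the median of every array. Jdp2, which dimerises with Jun and can repress AP-1, had 0.13 ± 0.093. It was the 1 gene of the 13 whose groups did not overlap, against 14.8% of all genes. On WT replicate 1 these genes had the highest mean deviation, 0.28, and on WT replicate 3 the lowest, -0.22, but N1-IC replicate 3 was second highest at 0.075.

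Feedback inhibitors of ERK signalling, which are themselves induced by ERK, had 4 of 7 means higher and 3 lower in N1-IC, with 0 passing. Their order of arrays differed from that of the 10 genes. The mean deviation was highest on N1-IC replicate 3 (0.17) and next on N1-IC replicate 2 (0.16). It was -0.079 on WT replicate 1 and lowest on WT replicate 3 (-0.21). Dusp6, the phosphatase of ERK, read 10.45, 11.23 and 10.99 in WT and 11.46, 11.90 and 12.00 in N1-IC. The difference was 0.90 ± 0.24 log2 units with a limma unadjusted p of 0.00932 and an adjusted p of 0.639. Every N1-IC array was above every WT array. The groups did not overlap for 3 of the 7 genes (2 higher and 1 lower in N1-IC). Over all genes the share was 14.8%, 8.32% higher and 6.52% lower. Spry2, an inhibitor of receptor kinase signalling, had 0.47 ± 0.16, also without overlap. Dusp4, a nuclear phosphatase of the same family as Dusp6, had a fitted -0.44 ± 0.21 without overlap, but it read 4.10 to 5.13, below the median of every array, and whether it was above background was not tested. Spred1 had 0.18 ± 0.15.

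The kinases and transcription factors upstream had 7 of 13 measured means higher and 6 lower, with 0 passing. The JNK genes Mapk9 and Mapk8 had log2 fold changes of 0.31 ± 0.14 and 0.39 ± 0.20, Map2k1, the gene of an ERK kinase, 0.21 ± 0.11, and Elk3, a partner of SRF, 0.23 ± 0.11. Proteins that bind AU-rich elements and control the decay of immediate early transcripts had 2 of 5 higher and 3 lower, with 0 passing. Zfp36l1, of this group, had -0.85 ± 0.42 and Khsrp 0.33 ± 0.16, while Hnrnpd and Zfp36l2 had 0.13 and -0.064.

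Heat shock genes were listed because they are also induced by stress to live cells. Of 10 measured genes 2 had higher and 8 lower means in N1-IC, where 47.4% of all genes were lower, and 0 passed. The median log2 fold change was -0.18, against 0.012 over all genes. In 2 of the 10, Dnaja1 and Dnajb1, the N1-IC arrays lay wholly below the WT arrays, against 6.52% of all genes. The chaperone genes Dnaja1, Hspd1, Dnajb1 and Hspe1 had -0.27, -0.24, -0.18 and -0.17. Their order of arrays differed from that of the immediate early genes: the mean deviation was highest on WT replicate 2 (0.19), 0.00059 on WT replicate 1 and -0.052 on N1-IC replicate 2. It was lowest on N1-IC replicate 3 (-0.18, with a median deviation of -0.017), an array that was also low for the 10 immediate early genes (-0.17).

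**Figure D4:**
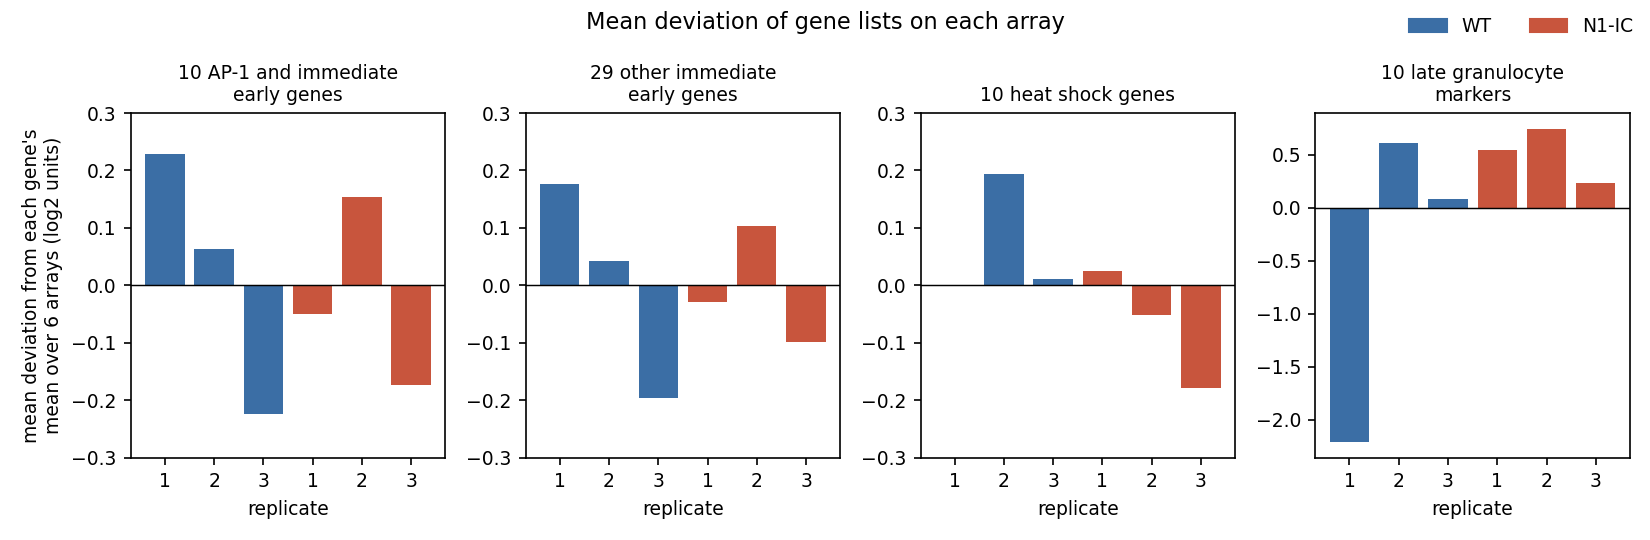
Mean deviation of 4 gene lists from each gene's mean over the 6 arrays, in log2 units, for WT (blue) and N1-IC (red) replicates. The 10 AP-1 and immediate early genes and the 29 other immediate early genes rank the arrays in the same order, the heat shock genes do not, and the late granulocyte markers, drawn on a wider scale, drop to -2.21 on WT replicate 1.

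Some arrays stood apart in other respects. Granulocyte-monocyte progenitor markers (Mpo, Elane, Prtn3, Ctsg and Cebpa) averaged 13.62 to 13.78 log2 units on all 6 arrays, and the genes of the sort gate (Kit, Cd34, Fcgr3 and Fcgr2b) lay above the array medians. All 4 gate genes had the lower mean in N1-IC, with 0 passing and a median log2 fold change of -0.21. Cd34 read 11.69, 11.52 and 11.33 in WT and 11.04, 10.05 and 11.28 in N1-IC, without overlap and lowest on N1-IC replicate 2, an array with high immediate early readings. It was the 1 gate gene of 4 without overlap, against 14.8% of all genes. Late granulocyte markers (10 measured of 11) had a summed level of 12.98 log2 units on WT replicate 1 and 15.85 to 15.96 on the other WT arrays, against 15.67 to 16.10 in N1-IC. WT replicate 1 had the highest and N1-IC replicate 2 the second highest readings of the immediate early genes, and for late granulocyte markers these arrays were the lowest and the highest. Erythroid and megakaryocyte markers (6 measured of 8) summed to 12.12 on WT replicate 2, against 8.85 to 9.44 on the other WT arrays and 8.25 to 9.05 in N1-IC. Monocyte markers (5 of 5) summed to 13.80 to 14.24 across the WT arrays and 13.90 to 13.98 across the N1-IC arrays. The summed level of mast cell and basophil markers (6 of 6) ran from 11.22 to 12.48 in WT and from 10.70 to 12.62 in N1-IC, and that of T cell markers (3 of 4) from 6.11 to 7.33 and from 6.10 to 6.76. Stromal and endothelial markers (4 of 4) summed to 10.22 on WT replicate 1, against 9.05 and 9.10 on the other WT arrays and 8.40 to 8.90 in N1-IC. Of these Pecam1 read 10.11 on WT replicate 1 and 8.05 to 8.96 on the other 5 arrays, while Cdh5 was at 3.08 to 3.87, below every array median. By mean deviation these 4 markers were highest on WT replicate 3 (0.37) and next on WT replicate 1 (0.33). These arrays had the lowest and the highest immediate early readings. B cell markers (4 of 5) ran from 10.99 to 11.51 in WT and from 11.31 to 11.37 in N1-IC, and NK cell markers (4 of 4) from 13.21 to 13.35 and from 13.05 to 13.44. The mean deviation of the NK cell markers varied more, from 0.81 on WT replicate 2 to -0.58 on N1-IC replicate 2. Their median log2 fold change was -0.42, with 3 means lower and 1 higher in N1-IC. No marker was listed at 0, and the part of other cells in the immediate early readings was not tested. In these bulk samples fewer expressing cells and less RNA per cell cannot be told apart. Array values correlated at 0.9821 to 0.9900 over all probe sets, and WT replicate 3 had its highest correlation with N1-IC replicate 1.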

How the data were processed

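The authors deposited intensities on a linear scale, 1 value per probe set and array (3 WT, 3 N1-IC). RMA is named per the submitters' processing notes, with a version not given in the sources used here. Per the labels' protocols, 5 ng of RNA was amplified with the NuGEN Ovation system. The sorted values of the arrays were nearly the same, within 0.103 log2 units, so differences in total signal between groups are removed and changes are relative to other genes. The number of arrays limits the precision. Saturation and detection calls were not used here.

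Log2 was taken with no offset. The 64 Affymetrix controls were left out, and the other 45037 probe sets were fitted together by limma 3.58.1 in R 4.3.3 (functions lmFit and eBayes, no covariate). A call needed a p under 0.05 after Benjamini-Hochberg adjustment. The fit was tested on simulated data. Of these probe sets 34945 had 1 gene symbol, 932 several and 9160 none, and 34741 matched a GRCm38.p6 gene table by Entrez identifier. For gene lists each gene was read by its brightest probe set. Listed genes without a probe set of a single symbol were not analysed here. The members and lists were chosen with earlier results of these data known. All member probe sets are named, with up to 4 genes of the smallest p per pathway list and 5 nearest genes.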

Additional observations from a re-analysis of the deposited data

How the results depend on the processing

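Under the 17 alternatives 0 of the immediate early probe sets and 0 genes of the pathway lists passed. Of the 122 fold changes of the immediate early probe sets that an alternative could move, 105 kept their direction and 17 changed sign, and the cause was not tested. Adjusted p values under all alternatives ran from 0.439 to 0.999. Sign changes with all arrays were -0.087 for Jund (mean of its probe sets), -0.0038 for Fos and 0.024 for Junb (quantile normalization repeated) and 0.012 for Fosb (arrays centred on their medians). Leaving out 1 array moved Fos from -0.023 to 0.064, Fosb from -0.14 to 0.23, the second Jun probe set from -0.26 to 0.22, Junb from -0.18 to 0.036, Egr1 from -0.18 to 0.036, Atf3 from -0.88 to -0.070, Ier2 from -0.39 to -0.022, Ier3 from -0.14 to 0.047 and Dusp1 from -0.016 to 0.075. The count of probe sets without overlap ran from 0 to 5, highest without WT replicate 3, and the median log2 fold change from -0.16 to 0.050. Over the whole array 4 probe sets passed, 1 with the brightest probe set of each gene, 7 with a mean-variance trend, 10 at an adjusted p under 0.1 and 3 to 8 without 1 array, most without WT replicate 2. With the replicate number as a block 2 passed. Deviations of same-numbered arrays correlated at 0.013, 0.040 and -0.077, so the numbers are not taken to pair the arrays. Alternatives chosen after seeing the data changed the count of genes above their own mean on N1-IC replicate 3 from 1 to 2 (quantile normalization repeated, or arrays centred) or 0 (mean of probe sets), and on WT replicate 3 from 0 to 1 (arrays centred, or mean of probe sets). WT replicate 1 and N1-IC replicate 2 had the highest mean deviations under each of these, and without Atf3 that of WT replicate 2 changed from 0.064 to -0.0055. Probe sets near the array median, such as the dimmer one of Jund, carry the least signal over background.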

Other observations

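The genes most like Fos over the 6 arrays were sought among all others by the root mean square difference between centred log2 profiles, as a description with no test. The nearest were Lrrc63, Nsmce1, Gpc1, Lamp1 and Rhog, at 0.0073 to 0.023 log2 units, where the profile of Fos itself had a root mean square of 0.059. Lrrc63 read 2.90 to 3.07 log2 units, below the lower quartile of every array, and whether it was above background was not tested. Nsmce1 encodes a subunit of the SMC5-SMC6 complex, Lamp1 a lysosomal membrane protein and Rhog a small GTPase. Among the immediate early genes Dusp1 was nearest to Fos (0.043), with 87 other genes nearer, and Atf3 was farthest (0.63).

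The genes most like the mean profile of the 10 immediate early genes were Cap1, Rbm33, Prkdc, E130114P18Rik and Chmp7, at 0.029 to 0.047 log2 units, where the mean profile had a root mean square of 0.16. Cap1 encodes a regulator of actin, Prkdc the catalytic subunit of the DNA-dependent protein kinase and Chmp7 a protein of the ESCRT-III machinery. Prkdc read 8.57, 8.37 and 8.06 in WT and 8.22, 8.55 and 8.13 in N1-IC. Its high arrays were WT replicate 1 and N1-IC replicate 2, which follows from its being chosen for likeness to the mean profile. E130114P18Rik read 3.78 to 4.22, below the median of every array. None of these is among the listed immediate early genes.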
